A study of Saccharomyces cerevisiae with 4 samples.

Results

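The nuclear genes of the respiratory chain were followed in budding yeast given tauroursodeoxycholic acid (TUDCA), a bile acid joined to taurine that is used as a chemical chaperone. The set was fixed by systematic gene name. It held 35 of the 7127 features in the count table: 4 genes of complex II, 9 of complex III, 7 of complex IV, 11 of ATP synthase, and HAP2, HAP3, HAP4 and HAP5, which encode the HAP transcription complex. All 35 passed the filter on low counts and entered the test over 6420 genes.

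Both groups were strain BY4742 (MATα), a haploid laboratory yeast that carries his3Δ1, leu2Δ0, lys2Δ0 and ura3Δ0. Cultures in exponential growth in YPD, a rich medium with glucose, were given 5 mM TUDCA for 2 h (TUDCA, 2 libraries) or were kept without it for the same time (Ctrl, 2 libraries). Libraries were made from poly(A)-enriched RNA. Means below are over n = 2 with the SD as error. Whether the replicates grew as separate cultures is not stated in the labels. The p-values therefore reflect only how these libraries varied, which can be technical variation.

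Complexes II, III and IV pass electrons from succinate to oxygen in the inner mitochondrial membrane, complexes III and IV pump protons, and ATP synthase uses the proton gradient to make ATP. Each of the complexes except complex II combines nuclear subunits, measured here, with subunits encoded in mitochondrial DNA. In yeast, many of the nuclear genes are activated by the HAP complex, in which Hap2, Hap3 and Hap5 bind DNA at the CCAAT box and Hap4 supplies the activation domain. Glucose represses these genes, in part by keeping HAP4 transcription low, so cells in glucose medium express them below their respiratory level.

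The libraries held 74963319 and 85380303 counts in TUDCA and 74080860 and 97133389 counts in Ctrl. The deleted markers LEU2 and URA3 had 0 counts in every library, which allows up to 3 counts each, and LYS2 at most 2 counts. Ctrl replicate 2 stood apart: among genes above 1 CPM (counts scaled to library size), the SD of log2 ratios between libraries was 0.24 to 0.30 in pairs with it and 0.12 to 0.15 in pairs without it. For the 35 genes alone, that SD was 0.11 to 0.17 in pairs with it and 0.055 to 0.10 in pairs without it. Each group difference below is therefore read beside the gap between the replicates.

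HAP4 differed more between the groups than any other of the 35 genes, by 1.46-fold, and the subunit genes differed by less. The next highest were SDH1, SDH2, COR1, QCR2, CYT1, RIP1 and ATP2, with fitted folds of 1.14 to 1.23, while the complex IV genes lay between 0.98-fold and 1.08-fold of Ctrl. None of the 35 passed the quasi-likelihood test of edgeR after Benjamini-Hochberg adjustment, where 6 of all 6420 genes passed (0.0935%). The smallest adjusted p among them was 0.25, for HAP4. At an unadjusted p under 0.05, 4 of the 35 were higher (HAP4, SDH1, SDH2 and COR1) and 0 were lower, against 3.75% of all genes higher and 4.56% lower.

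In 17 of the 35 genes both TUDCA libraries lay above both Ctrl libraries, and in 0 below. Over all genes tested, the groups were separated with TUDCA above in 23.7% and with TUDCA below in 23.9%. Fitted log2 fold changes were above 0 for 29 genes and below 0 for 6, against 3145 above and 3275 below among all 6420 genes tested. The median of the 35 genes was 0.053, against -0.0037 for all genes tested. The number above 0 was 19 without TUDCA replicate 1, 34 without TUDCA replicate 2, 21 without Ctrl replicate 1 and 33 without Ctrl replicate 2, with medians of 0.015, 0.096, 0.016 and 0.094 in that order. Between replicates, the 35 genes had a median log2 ratio of -0.083 for TUDCA replicate 2 over TUDCA replicate 1. For Ctrl replicate 2 over Ctrl replicate 1 it was 0.052. Over all genes tested these medians were 0.0019 and 0.0016. The gap between the TUDCA replicates in the median of the 35 genes was thus wider than that between the groups. Other scalings shifted all genes alike: under upper-quartile scaling the 35 genes had a median of 0.0084 and all genes one of -0.048, and under library-size scaling the 35 genes had 0.098 and all genes 0.040. A sign near 0 that turned with the scaling, named below for single genes, reflects that common shift. By complex, the median was 0.19 for complex II, 0.11 for complex III and 0.090 for ATP synthase. It was 0.026 for complex IV, which was at -0.018 under upper-quartile scaling, and -0.0090 for the HAP genes, which were at 0.035 under library-size scaling, where all genes had the medians just given. Gene length also differed, with medians of 699 bases for complex II, 444 for complex III, 525 for ATP synthase and 252 for complex IV. Medians of fold change with a trend on length removed are given with the length results.

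The 35 genes together took 1.72% of the counts in TUDCA replicate 1 (exact 95% binomial interval 1.714% to 1.72%) and 1.65% in TUDCA replicate 2 (1.644% to 1.65%). Their share was 1.52% in Ctrl replicate 1 (1.514% to 1.52%) and 1.49% in Ctrl replicate 2 (1.488% to 1.493%). Both TUDCA libraries therefore lay above both Ctrl libraries in this share, though such intervals cover counting error only. The share is of raw counts and leaves out the TMM scaling factors, which were 1.018 and 1.012 in TUDCA and 0.998 and 0.972 in Ctrl. It also gives most weight to the most abundant genes, such as ATP1 and ATP2. RNA was measured in bulk, so a gene used by more cells and more RNA per cell cannot be told apart.

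**Figure D1:**
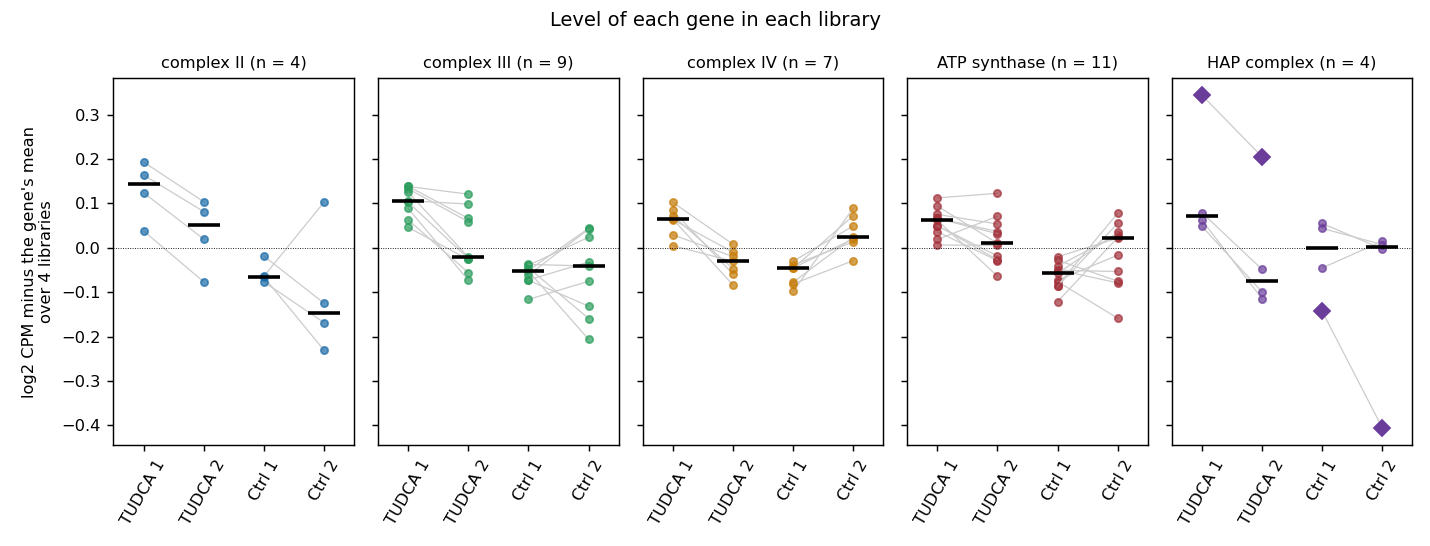
Level of each of the 35 genes in the 4 libraries, as log2 CPM minus the gene's own mean, with 1 panel per complex. Points are genes, grey lines join replicates of a group, black bars are medians, and diamonds mark HAP4, which was at 304 and 276 CPM in TUDCA and 217 and 181 CPM in Ctrl.

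HAP4 (YKL109W, chromosome XI, 232227 to 233891, build R64) is the regulated subunit of the complex. It was at 304 and 276 CPM in the TUDCA libraries, against 217 and 181 CPM in the Ctrl libraries, scaled by TMM factors like every CPM value here. Both TUDCA libraries were above both Ctrl libraries, and the lower TUDCA library exceeded the higher Ctrl library by more than the Ctrl libraries differed from each other. The means were 290 ± 19.7 CPM in TUDCA and 199 ± 25.5 CPM in Ctrl, a log2 fold change of 0.55 (SE 0.11, 95% interval 0.29 to 0.80). The unadjusted p was 0.00121, which ranked HAP4 at 31 of 6420 genes, and the edgeR adjusted p was 0.25. DESeq2 did call it (log2 fold change 0.55, adjusted p = 0.00149), as 1 of the 35 genes where it called 1.05% of the genes it tested.

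HAP4 stayed above Ctrl with each library left out in turn, with a log2 fold change between 0.42 and 0.69. Whether it passed changed with the library left out, and so did the replicates that gave the test its spread. The part of each was not tested. It passed edgeR's test without Ctrl replicate 1 (0.69, adjusted p = 0.000147) and without Ctrl replicate 2 (0.42, adjusted p = 0.0444). It did not pass without TUDCA replicate 1 (0.47, adjusted p = 0.88) or without TUDCA replicate 2 (0.61, adjusted p = 0.0905).

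The genes of the 3 DNA-binding subunits had overlapping groups. HAP2 (YGL237C, chromosome VII, 52731 to 53528) was at 56.7 and 50.2 CPM in TUDCA and 56.4 and 54.2 CPM in Ctrl. HAP3 (YBL021C, chromosome II, 181660 to 182094) was at 30.2 and 27.6 CPM in TUDCA and 27.7 and 28.9 CPM in Ctrl. HAP5 (YOR358W, chromosome XV, 1010161 to 1010889) was at 61.8 and 55.8 CPM in TUDCA and 61.6 and 60.04 CPM in Ctrl. In each of them TUDCA replicate 2 was the lowest library. Their log2 fold changes were -0.050 (95% interval -0.25 to 0.15), 0.031 (-0.18 to 0.25) and -0.049 (-0.24 to 0.14) in that order, and the 3 intervals lay below the lower bound for HAP4. Whether HAP4 differed from its partners was not tested.

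Levels can be compared between genes only per length, and whether levels per kilobase still depended on length was not tested. Per kilobase of coding sequence, HAP4 averaged 174 CPM in TUDCA and 119 CPM in Ctrl. Its partners lay between 66.5 and 80.6 CPM per kilobase in TUDCA and between 65.0 and 83.4 CPM per kilobase in Ctrl. On that scale the libraries of HAP2 and HAP3 overlapped in TUDCA, while in Ctrl both HAP2 libraries lay above both HAP3 libraries.

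The HAP complex recognises CCAAT, so the 600 bases before each start codon were searched in the R64 genome for CCAAT and for a longer form, ACCAATNA, on both strands. Every ACCAATNA also holds a CCAAT. The short form occurred in 33 of the 35 windows (94.3%) and in 70.3% of the windows of 5999 nuclear protein-coding genes; COX4 and HAP5 had none. The long form occurred in 16 of the 35 (45.7%) and in 10.4% of all windows. By complex, it was found for 1 of 4 genes of complex II, 3 of 9 of complex III, 4 of 7 of complex IV, 7 of 11 of ATP synthase and 1 of 4 HAP genes.

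These 16 windows held 19 such matches, of which 15 read along the gene's own strand and 12 lay 120 to 250 bases before the start codon. Strand and position were not counted over the windows of all genes, so whether these counts are particular to the set was not tested. A total of 2 matches fell inside another annotated gene. Below is the match nearest the start codon for each gene whose 4 library levels are given and whose match lies outside other genes, so that the flanks can be compared. Capitals mark the match, read on the strand that carries it:
SDH1: ggcgggggtggACCAATCAcagcgcagaac
COR1: acgctttctgcACCAATGAaatgccaataa
RIP1: ctccataacggACCAATCAgcgttttgcgc
QCR7: atcttgttttgACCAATCAggagcgacgcg
COX8: aaacggtttgcACCAATCAtacgagagaag
COX12: tcataacattgACCAATCAattttcagaaa
ATP3: cgtgatggagaACCAATGAgcggcgagtaa
ATP7: gtaaaagatacACCAATTAccacttgctgc
ATP15: cttttatacgaACCAATGAaatttgatcct
HAP4: tgtactaggagACCAATAAatatgtgtgga

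They begin and end, in build R64, at chr11:171429-171458 (minus strand) for SDH1, chr2:135849-135878 (minus) for COR1, chr5:107001-107030 (plus) for RIP1, chr4:1496712-1496741 (minus) for QCR7 and chr12:910149-910178 (minus) for COX8. Those of the others are chr12:225360-225389 (minus) for COX12, chr2:315368-315397 (plus) for ATP3, chr11:408149-408178 (minus) for ATP7, chr16:29934-29963 (plus) for ATP15 and chr11:232121-232150 (minus) for HAP4. In 5 of the 10 the base at N was C (SDH1, RIP1, QCR7, COX8 and COX12), in 3 it was G (COR1, ATP3 and ATP15), in ATP7 it was T and in HAP4 it was A. The HAP4 match read on the strand opposite to the gene and lay 88 bases before its start codon, nearer than any of the other 18 matches to ACCAATNA. Transcription start sites were not used, so a window may include transcribed leader sequence. The median log2 fold change was 0.060 for the 16 genes with the long form and 0.053 for the 19 without it.

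Complex II, succinate dehydrogenase, also works in the tricarboxylic acid cycle and is encoded in the nucleus alone. SDH1 (YKL148C, chromosome XI, 169207 to 171129), the flavoprotein that oxidises succinate, was at 393 and 369 CPM in TUDCA, against 328 and 293 CPM in Ctrl. The TUDCA libraries were above the Ctrl libraries, and the fitted log2 fold change was 0.30 with an SE of 0.096 (edgeR adjusted p = 0.544). SDH2 (YLL041C, chromosome XII, 53131 to 53931), the iron-sulphur subunit that passes on the electrons, was at 534 and 504 CPM in TUDCA and 452 and 424 CPM in Ctrl. It too had separate groups, and a fitted log2 fold change of 0.25 with an SE of 0.094 (edgeR adjusted p = 0.544).

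The membrane anchors of complex II differed from each other in direction. SDH4 (YDR178W, chromosome IV, 817950 to 818495) was at 334 and 311 CPM in TUDCA, above 303 and 281 CPM in Ctrl, with a log2 fold change of 0.14 (95% interval -0.065 to 0.35). SDH3 (YKL141W, chromosome XI, 179667 to 180263) was at 496 and 458 CPM in TUDCA and 462 and 518 CPM in Ctrl, so its groups overlapped, with a log2 fold change of -0.040 (-0.28 to 0.20). The sign for SDH3 turned positive under library-size scaling and with a trend on gene length removed. Ctrl replicate 2 was the highest of the 4 libraries for SDH3 and the lowest for SDH1, SDH2 and SDH4. Per kilobase, SDH3 was the most abundant of the 4, at 798 CPM in TUDCA and 821 CPM in Ctrl, and SDH1 the least, at 198 CPM in TUDCA and 162 CPM in Ctrl.

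Paralogs could share reads with 3 of these genes. The paralogs SDH9 of SDH1, SHH3 of SDH3 and SHH4 of SDH4 had 4.64%, 3.97% and 6.12% of the counts of their partners over the 4 libraries. SDH9 averaged 15.2 CPM in TUDCA and 16.8 CPM in Ctrl, so it was not higher in TUDCA as SDH1 was.

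Complex III is the cytochrome bc1 complex, and none of its 9 genes passed the test. In 6 of them the groups were separate with TUDCA above, an order found in 23.7% of all genes. COR1 (YBL045C, chromosome II, 134143 to 135516), a core subunit on the matrix side, was at 874 and 864 CPM in TUDCA, against 766 and 689 CPM in Ctrl. Its fitted log2 fold change was 0.26 with an SE of 0.10 (edgeR adjusted p = 0.544). CYT1 (YOR065W, chromosome XV, 447439 to 448368), which encodes cytochrome c1, was at 463 and 460 CPM in TUDCA and 416 and 385 CPM in Ctrl, a log2 fold change of 0.20 (95% interval -0.0097 to 0.42). RIP1 (YEL024W, chromosome V, 107260 to 107907), the Rieske iron-sulphur protein, was at 334 and 318 CPM in TUDCA and 281 and 290 CPM in Ctrl, a log2 fold change of 0.19 (-0.0033 to 0.39). With QCR2, the other core subunit, these were the 4 genes of the complex that make up its core and electron carriers outside mitochondrial DNA, and in all 4 the TUDCA libraries were the higher ones.

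The 5 small subunit genes of complex III had a median log2 fold change of 0.019, against 0.20 for those 4, a difference that was not tested. The small subunit genes were also shorter, with a median length of 285 bases against 1018.5. Fold change went with length over all protein-coding genes, and the part of length in this contrast was not tested. With the trend on length removed, QCR6, QCR7 and QCR8 were at 0.079, 0.098 and 0.11. COR1, CYT1 and RIP1 were then at 0.24, 0.24 and 0.25. QCR7 (YDR529C, chromosome IV, 1496165 to 1496548), whose product joins cytochrome b early in assembly, was at 715 and 680 CPM in TUDCA and 664 and 713 CPM in Ctrl. QCR8 (YJL166W, chromosome X, 106434 to 106718), another early partner of cytochrome b, was at 505 and 451 CPM in TUDCA and 462 and 483 CPM in Ctrl. For both genes the 4 libraries interleaved, and the log2 fold changes were 0.019 (-0.21 to 0.25) for QCR7 and 0.017 (-0.21 to 0.25) for QCR8. QCR6 (YFR033C, chromosome VI, 224326 to 224769), the acidic subunit near cytochrome c1, had the lowest value of the complex, 0.0075 (-0.22 to 0.24), from 676 and 623 CPM in TUDCA and 625 and 667 CPM in Ctrl. QCR9 and QCR10, which each have an intron, had separate groups with TUDCA above and log2 fold changes of 0.11 and 0.080. Values near 0 changed sign with the scaling, and QCR6, QCR7 and QCR8 were below 0 under upper-quartile scaling.

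Levels per kilobase within complex III were far from equal, among genes of 201 to 1374 bases. Per kilobase, QCR7 led with 1817 CPM in TUDCA and 1793 CPM in Ctrl, and QCR8 followed with 1678 CPM in TUDCA and 1658 CPM in Ctrl. CYT1 and RIP1 were lowest, at 496 and 503 CPM per kilobase in TUDCA and 431 and 440 CPM per kilobase in Ctrl, and did not differ from each other beyond their spread.

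**Figure D2:**
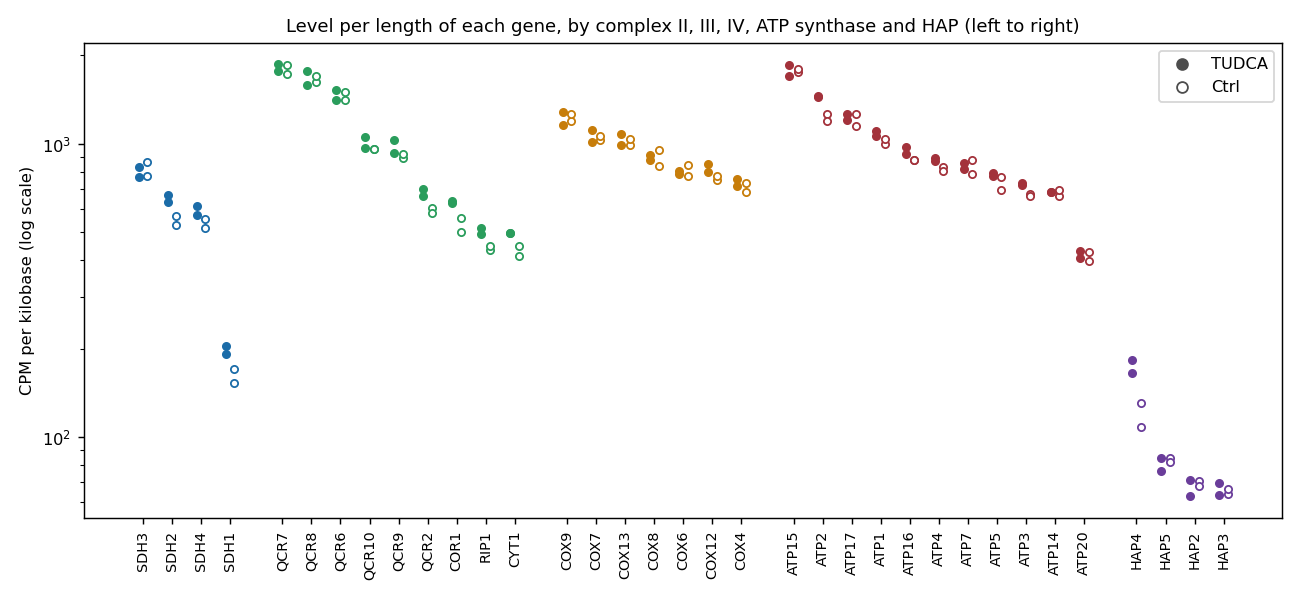
Level per coding length (CPM per kilobase, log axis) of each gene in each library, with TUDCA as filled and Ctrl as open circles, grouped by complex and ordered by mean level. QCR7 and ATP15 stood near 1800 CPM per kilobase and SDH1 and the HAP genes below 210 CPM per kilobase. Both filled circles lie above both open circles in 17 of the 35 genes, among them HAP4, SDH1, COR1 and ATP2.

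Complex IV, cytochrome c oxidase, is built around 3 mitochondrially encoded subunits, and the 7 nuclear genes here encode the small subunits around that core. Only COX12 had separate groups, with TUDCA above, an order found in 23.7% of all genes, and 5 of the 7 fitted values were above 0. COX12 (YLR038C, chromosome XII, 224921 to 225172) was at 215 and 201 CPM in TUDCA and 189 and 196 CPM in Ctrl, a log2 fold change of 0.11 (95% interval -0.079 to 0.30, edgeR adjusted p = 0.59). COX4 (YGL187C, chromosome VII, 149704 to 150171) was at 353 and 336 CPM in TUDCA and 320 and 343 CPM in Ctrl, with 0.053 (-0.15 to 0.26). COX7 (YMR256C, chromosome XIII, 778945 to 779127) was at 204 and 185 CPM in TUDCA and 188 and 194 CPM in Ctrl, with 0.027 (-0.17 to 0.23).

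COX6 (YHR051W, chromosome VIII, 209705 to 210151) had the lowest value of complex IV, a log2 fold change of -0.027 (-0.24 to 0.18), from 360 and 351 CPM in TUDCA and 347 and 377 CPM in Ctrl. COX9 (YDL067C, chromosome IV, 334217 to 334396) was at 230 and 207 CPM in TUDCA and 215 and 228 CPM in Ctrl, with -0.017 (-0.22 to 0.19). COX8 (YLR395C, chromosome XII, 909729 to 909965) had the largest gap between replicates, with 216 and 209 CPM in TUDCA and 198 and 225 CPM in Ctrl. Its Ctrl libraries lay on either side of its TUDCA libraries, and the log2 fold change was 0.0068 (-0.21 to 0.22). In all 7 genes Ctrl replicate 2 was above Ctrl replicate 1 (median log2 ratio 0.080) and in each of them TUDCA replicate 1 was above TUDCA replicate 2. The complex spanned a narrow range per kilobase, between COX9 at 1215 CPM in TUDCA and 1230 CPM in Ctrl and COX4 at 736 CPM in TUDCA and 709 CPM in Ctrl.

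ATP synthase has a catalytic F1 head, a central and a peripheral stalk, and a membrane sector with mitochondrially encoded subunits. Of its 11 genes, 6 had separate groups with TUDCA above, an order found in 23.7% of all genes, and 10 had fitted values above 0. ATP2 (YJR121W, chromosome X, 647607 to 649142), the catalytic β subunit, was the most abundant transcript of the 35 before length is considered, with 2212 and 2228 CPM in TUDCA and 1941 and 1833 CPM in Ctrl. Its TUDCA libraries were close together and above the Ctrl libraries, and a log2 fold change of 0.23 (95% interval -0.0090 to 0.48, edgeR adjusted p = 0.544). ATP1, which encodes the α subunit that alternates with β in the head, also had separate groups, at a log2 fold change of 0.090.

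The rest of the F1 head spread between these values and 0. ATP3 (YBR039W, chromosome II, 315575 to 316510), the γ subunit of the rotating central stalk, was at 688 and 678 CPM in TUDCA and 631 and 619 CPM in Ctrl, a log2 fold change of 0.13 (-0.087 to 0.34). ATP16 (YDL004W, chromosome IV, 443029 to 443511), the δ subunit at its foot, was at 471 and 444 CPM in TUDCA and 426 and 425 CPM in Ctrl, with 0.10 (-0.10 to 0.31). ATP15 (YPL271W, chromosome XVI, 30079 to 30267), the ε subunit bound beside it, was at 350 and 321 CPM in TUDCA and 330 and 340 CPM in Ctrl. The Ctrl libraries of ATP15 lay between its TUDCA libraries, with -0.00034 (-0.21 to 0.21), a value whose sign turned under 7 of the 9 alternatives that kept all libraries.

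The 6 genes of the peripheral stalk and the membrane sector had a median log2 fold change of 0.026. ATP4 and ATP5, which encode the b and OSCP subunits that tie the stalk to the head, had separate groups with 0.10 and 0.096. ATP7 (YKL016C, chromosome XI, 407465 to 407989), the d subunit, was at 450 and 430 CPM in TUDCA and 413 and 463 CPM in Ctrl, with 0.0053 (-0.22 to 0.23), so its Ctrl libraries lay outside its TUDCA libraries. ATP20 (YPR020W, chromosome XVI, 599870 to 600217), the g subunit that helps the enzyme form dimers, was at 150 and 142 CPM in TUDCA and 139 and 148 CPM in Ctrl, with 0.023 (-0.17 to 0.21). ATP14 and ATP17 had overlapping groups and values of 0.011 and 0.030. Under upper-quartile scaling ATP7 and ATP20 were below 0.

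Per kilobase, ATP15 was the most abundant subunit transcript of the enzyme at 1774 CPM in TUDCA and 1775 CPM in Ctrl, and ATP20 the least at 419 CPM in TUDCA and 412 CPM in Ctrl. ATP15 was also the shortest of the 11 genes, at 189 bases, while ATP20 had 348 bases and ATP2 had 1536. ATP2 was second at 1445 CPM per kilobase in TUDCA, and its Ctrl level of 1229 CPM per kilobase was close to that of ATP17, at 1204. ATP1 lay below ATP2 in both groups, at 1080 CPM per kilobase in TUDCA and 1015 CPM per kilobase in Ctrl. Another feature overlapped 15.3% of ATP1, on the opposite strand, and 8.53% of ATP14, on its own strand. Of 113 features covered in full by opposite-strand features, 112 had 0 counts in every library, against 124 of 6033 features with none on the opposite strand, so the level of ATP1 is uncertain.

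**Figure D3:**
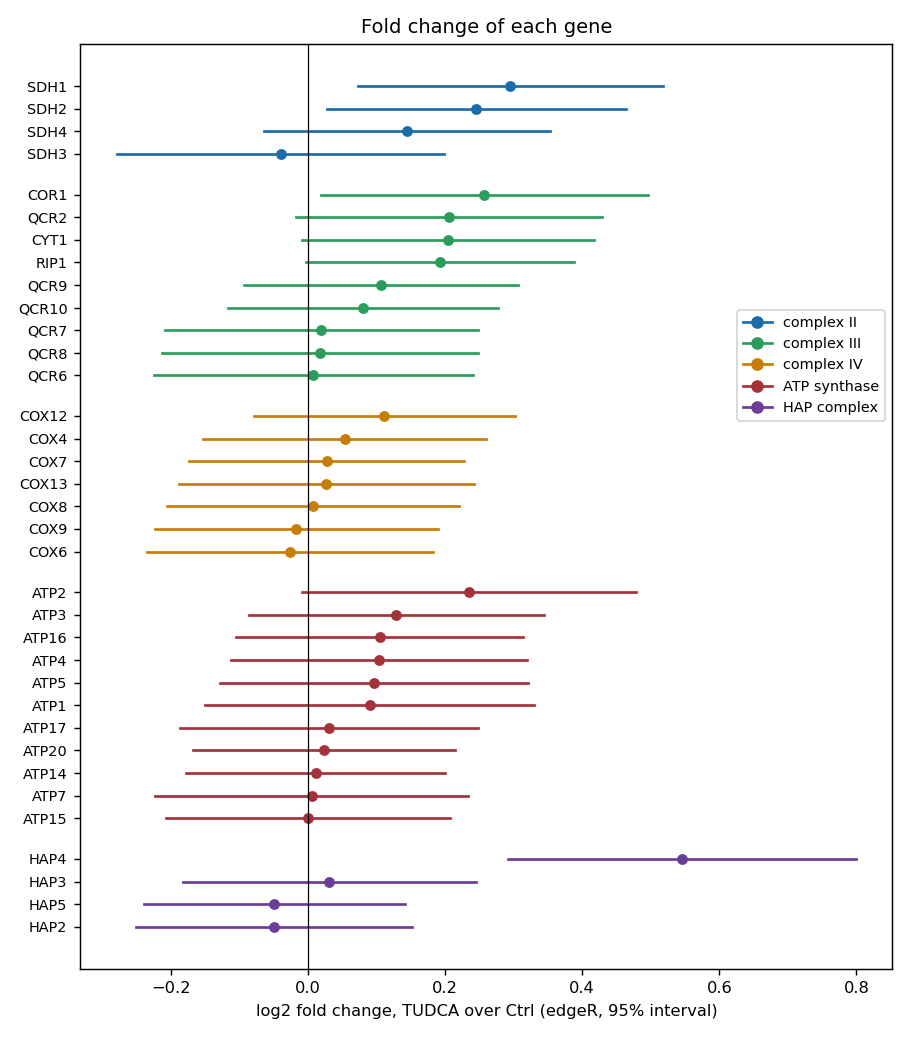
log2 fold change of TUDCA over Ctrl for each of the 35 genes, by complex, with 95% intervals from edgeR. The intervals of HAP4 (0.29 to 0.80), SDH1 (0.072 to 0.52), SDH2 (0.027 to 0.46) and COR1 (0.018 to 0.50) lie above 0 and the other 31 cross it.

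Within the set, log2 fold change went with gene length. The 8 genes of up to 300 bases had a median of 0.022 and the 13 longer ones of up to 600 bases one of 0.023. The next 6 genes, of up to 900 bases, had a median of 0.0996, the 4 of up to 1500 bases one of 0.20 and the 4 over 1500 bases one of 0.26. Spearman's rho between length and log2 fold change was 0.54 over the 35 genes, which share the same 4 libraries.

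All protein-coding genes showed the same order at lower values, with rho also 0.54 over 5878 genes. In the same classes of length their median log2 fold changes were -0.13, -0.12, -0.070, -0.0090 and 0.093, so the medians of the respiratory genes lay above those of all genes in each class. With the trend on length removed by an offset, 34 of the 35 genes had fitted values above 0, their median was 0.12, and HAP4 was at 0.50 (edgeR adjusted p = 0.315). None of the 35 passed that test. With this offset the median was 0.22 for complex II, 0.22 for complex III and 0.12 for ATP synthase. It was 0.11 for complex IV and 0.054 for the HAP genes. Without the offset these medians were 0.19, 0.11, 0.090, 0.026 and -0.0090 in that order. Lengths also went with the gap between the Ctrl libraries: the median log2 ratio of Ctrl replicate 2 over Ctrl replicate 1 was 0.11 for protein-coding genes up to 300 bases and -0.10 for those over 1500 bases, and 0.052 and -0.12 for the members of these classes. The part of length in the group differences beyond this offset was not tested.

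**Figure D4:**
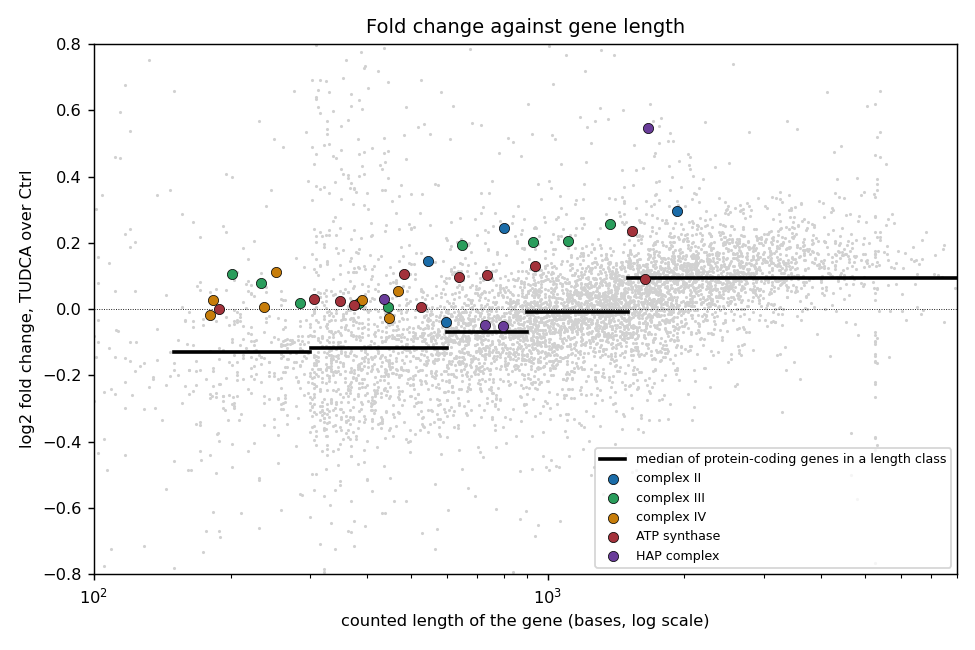
log2 fold change of TUDCA over Ctrl against counted gene length (log axis) for all genes tested (grey, values beyond 0.8 and lengths outside the axis not shown) and the 35 genes (coloured by complex). Black bars are medians of protein-coding genes in 5 length classes, from -0.13 in the shortest to 0.093 in the longest, and the coloured points lie mostly above them.

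How many of the 35 genes passed changed with the library left out. A fit without a Ctrl library took its spread from the TUDCA replicates alone, and one without a TUDCA library from the Ctrl replicates alone. Among genes above 1 CPM, the SD of log2 ratios was 0.12 in the TUDCA pair and 0.24 in the Ctrl pair. Whether the passes changed with the level of the library left out or with this spread was not tested. Without Ctrl replicate 1, 6 of the 35 were called higher (HAP4, SDH1, SDH2, COR1, CYT1 and ATP2), in a fit that called 17.6% of all genes higher. Without Ctrl replicate 2, HAP4 alone was called, where 0.372% of all genes were called higher. Without TUDCA replicate 1 or TUDCA replicate 2 none of the 35 was called, where 0.0309% and 0.186% of all genes were called higher. The share of 6 in 35 without Ctrl replicate 1 was thus close to that of all genes. In that fit SDH1 was at 0.39 (adjusted p = 0.00425), against 0.30 with all libraries. There SDH2 was at 0.30, COR1 at 0.35, CYT1 at 0.27 and ATP2 at 0.29, against 0.25, 0.26, 0.20 and 0.23 in that order with all libraries.

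The median over complex II was 0.15 without Ctrl replicate 2 and 0.26 without Ctrl replicate 1. That of complex III was 0.032 without TUDCA replicate 1 and 0.18 without TUDCA replicate 2. Complex IV moved across 0, at -0.034 without TUDCA replicate 1 and 0.085 without TUDCA replicate 2. ATP synthase stayed between 0.038 and 0.10 in these 4 fits.

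**Figure D5:**
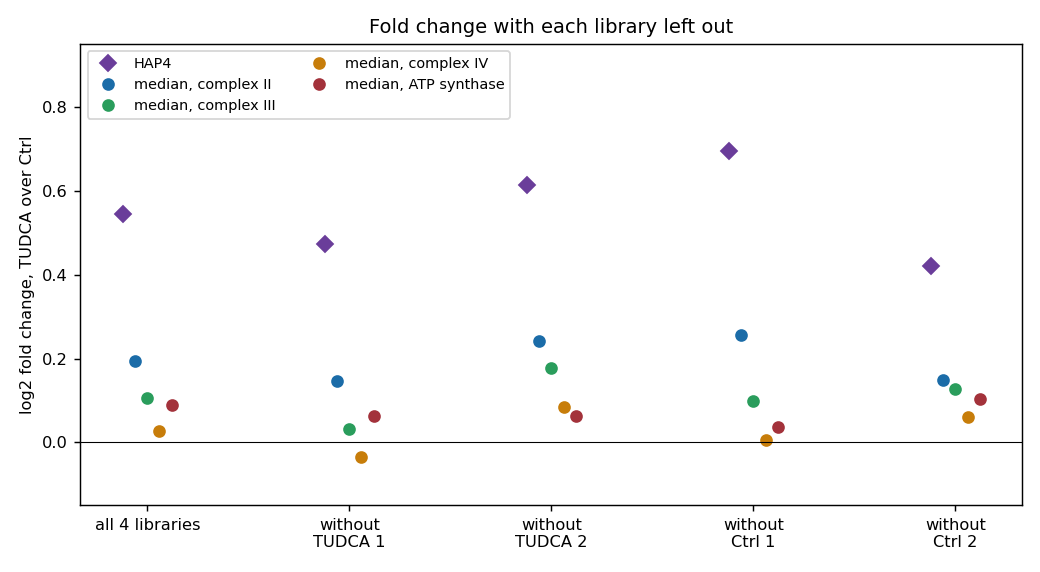
log2 fold change of HAP4 and median log2 fold change of 4 complexes, TUDCA over Ctrl, with all libraries and with each library left out. HAP4 stayed between 0.42 and 0.69, above every complex median in each fit, and complex IV crossed 0.

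Other nuclear genes of the pathway did not pass the test either. Of 4 genes for cytochrome c and alternative complex IV subunits, COX5B, the hypoxic form of subunit 5, was at 338 and 313 CPM in TUDCA and 402 and 408 CPM in Ctrl (log2 fold change -0.32, edgeR adjusted p = 0.544). CYC1, the aerobic form of cytochrome c and a standard target of the HAP complex, was at 61.5 and 59.8 CPM in TUDCA and 48.2 and 55.7 CPM in Ctrl (0.22, edgeR adjusted p = 0.544). CYC7, the other form of cytochrome c, was picked after its value was seen. It was at 152 and 109 CPM in TUDCA and 172 and 118.5 CPM in Ctrl (-0.16), with overlapping groups. CYC7 (342 bases) was thus above CYC1 (330 bases) in every library. COX5A, the aerobic form, was picked after its value was seen, as the counterpart of COX5B. It was at 288 and 283 CPM in TUDCA and 262 and 279 CPM in Ctrl (0.080, interval -0.12 to 0.27, edgeR adjusted p = 0.687). Its groups were separate with TUDCA above and those of COX5B with TUDCA below, orders found in 23.7% and 23.9% of all genes. The difference between the isoforms was not tested.

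Of 37 assembly factor genes 0 were called, 22 had fitted values above 0 and 15 below, and the median was 0.018. AEP2, which is needed to express a mitochondrially encoded ATP synthase subunit, had 0.21 and COX18, which helps insert a complex IV subunit, -0.18, the 2 smallest p of that list. Among 6 further ATP synthase subunits and inhibitors the median was 0.029, with 0.13 for the membrane subunit TIM11 and 0.052 for ATP18.

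A list of 10 genes had a median of 0.11, with 8 values above 0. It joined genes activated by the HAP complex with the haem or glucose regulators HAP1, ROX1 and MIG1. These regulators were at 0.031, 0.024 and 0.15, so the median is not that of HAP targets alone. In 6 of the 10 both TUDCA libraries lay above both Ctrl libraries, and in 1, HEM1, below, against 23.7% and 23.9% of all genes. The list's median length was 1581 bases, and all protein-coding genes over 1500 bases had a median log2 fold change of 0.093, close to that of the list. ACO1, the aconitase of the tricarboxylic acid cycle, was at 1354 and 1353 CPM in TUDCA and 1108 and 905 CPM in Ctrl (0.43, edgeR adjusted p = 0.544). KGD1, of the α-ketoglutarate dehydrogenase complex, was at 385 and 386 CPM in TUDCA and 351 and 274 CPM in Ctrl (0.30, edgeR adjusted p = 0.544). For both genes the Ctrl libraries were farther apart than the TUDCA libraries, with Ctrl replicate 2 the lowest.

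Of the mitochondrially encoded partners, only COX1 (707 to 1912) and OLI1 (660 to 1202) had more than 17 counts in these poly(A)-enriched libraries. Of 7 genes 4 (COX2, COX3, COB and ATP8) had at most 11 counts in a library and did not enter the test, and ATP6 had 13 to 17. OLI1, the ring subunit of ATP synthase, was at 8.65 and 9.97 CPM in TUDCA and 13.9 and 12.7 CPM in Ctrl (log2 fold change -0.52, edgeR adjusted p = 0.486). COX1 was at 9.26 and 12.4 CPM in TUDCA and 12.9 and 20.2 CPM in Ctrl (-0.62, edgeR adjusted p = 0.544). For both genes the TUDCA libraries lay below the Ctrl libraries, an order found in 23.9% of all genes. COX5B shared that order, and 0 of the 18 complex IV and ATP synthase genes among the 35 had it. Mitochondrial features did not all share it: both ribosomal RNAs did, AI1 and AI2 had TUDCA above, and ATP6 had overlapping groups. The difference between nuclear and mitochondrial genes was not tested.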

How the data were processed

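The submitters' processing notes name STAR 2.5.4b, featureCounts 1.6.0, DESeq2 1.26.0 and build R64. The authors deposited raw counts per gene and a table of normalized signal, which equalled the counts after division by a single size factor for each library. Annotation release, strand setting and multimapping rule are not given in the sources used here. Coordinates of the 35 genes equalled those of the R64 reference annotation. Counts were fitted in R 4.3.3 with edgeR 4.0.16: filterByExpr (minimum count 10), TMM factors, the two-sided quasi-likelihood F test with 2 residual degrees of freedom, and Benjamini-Hochberg adjustment at 0.05 over 6420 genes. The script was tested on simulated data. Alternatives used limma 3.58.1 (also on log2 of the normalized values + 1), DESeq2 1.42.0, other scalings, no filter, a replicate block, an offset on gene length (loess, span 0.5) and each library left out. Depth was 74080860 to 97133389 counts per library, and CPM are TMM-scaled. The genes and lists were chosen with earlier results of these data known. By rule, all HAP and complex II genes were named, in each other complex the 3 smallest p and the extremes of level per length, replicate ratio and fold change, and in each other list the 2 smallest p.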

Additional observations from a re-analysis of the deposited data

How the results depend on the processing

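Over all genes, edgeR called 2 genes higher and 4 lower in TUDCA. It called 1 higher under upper-quartile scaling, 191 higher and 162 lower with the replicate block, and 2 to 1139 higher and 5 to 871 lower with a library left out; DESeq2 called 31 higher and 30 lower. Of the 35 genes 0 were called; DESeq2 called 1 (HAP4), the replicate block gave 2 (HAP4 and SDH1), and leaving out a library gave 0 to 6. Over all alternatives the adjusted p ranged between 2.62e-06 (replicate block) and 0.88 (without TUDCA replicate 1) for HAP4, and between 0.00425 (without Ctrl replicate 1) and 0.9996 (without TUDCA replicate 2) for SDH1. A fit without 1 library assumes that the lone sample varies like the other group. Replicate numbers are shared between groups only as numbers: the replicate differences of the 2 groups correlated at 0.29 across genes, and with 2 pairs this does not show pairing. The median over the 35 genes was 0.053, stayed between 0.0084 and 0.098 under scalings, filter, tests and block, and was 0.12 with the length trend removed. Scalings moved the median of all genes by less than 0.1. Genes near 0 changed sign, none of them called. Under upper-quartile scaling, which left 18 of the 35 above 0 and put the median of all genes at -0.048, those among the genes named by the rule were QCR6 (-0.037), QCR7 (-0.026), QCR8 (-0.027), COX7 (-0.018), COX8 (-0.039), ATP7 (-0.040), ATP20 (-0.022) and HAP3 (-0.013). Under library-size scaling, with all genes at 0.040, they were SDH3 (0.0048), COX6 (0.018), COX9 (0.027) and ATP15 (0.044), and with the length trend removed SDH3 (0.023), COX6 (0.045), COX9 (0.0997), ATP15 (0.11) and HAP5 (0.0052). ATP15 was also at 0.0031 with DESeq2's size factors, 0.00034 with no filter, 0.0030 with DESeq2, 0.0017 with limma-voom and 0.0020 with limma on the deposited normalized values. With a library left out, the signs of these genes and of HAP2 turned as well. The values were -0.11 to 0.048 for SDH3, -0.053 to 0.066 for QCR6, -0.019 to 0.074 for QCR7, -0.066 to 0.096 for QCR8, -0.073 to 0.036 for COX6, -0.047 to 0.097 for COX7, -0.071 to 0.10 for COX8 and -0.094 to 0.055 for COX9. They were -0.065 to 0.061 for ATP15, -0.062 to 0.091 for ATP7, -0.016 to 0.072 for ATP20, -0.14 to 0.037 for HAP2, -0.034 to 0.094 for HAP3 and -0.12 to 0.023 for HAP5. The cause was not tested. With 2 libraries a group, an exact permutation test of a single gene cannot go below p = 0.333, and each of the 35 genes had at least 2048 counts in every library.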
